A study of Sus scrofa with 48 samples.

Results

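SULT2A1 and CYP2B22 are 2 enzymes of xenobiotic and steroid handling whose RNA levels were followed in the perirenal fat (PRAT, perirenal adipose tissue) of 48 pigs. They are 2 of 12535 genes named on the array, and every probe that the scanner files name SULT2A1 or CYP2B22 was taken, which gave 2 probes for each gene and 4 probes of 60305. The genes were chosen by their measured levels on the same arrays, where SULT2A1 had been lower on one diet and CYP2B22 had differed between lines, so the diet and line differences of both genes are given here as a description with no test. Their interaction and their variation between pigs of the same group were not used in that choice and were tested.

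The pigs were Large White barrows, that is castrated males, labelled as 132 days old. They came from a line selected for low and a line selected for high residual feed intake (RFI), which is the feed a growing pig eats beyond what its growth and maintenance predict. In each line 12 pigs received a low-fat high-starch (LF) diet and 12 a high-fat high-fiber (HF) diet, in which oil and wheat straw took the place of part of the starch. This gave 4 groups, LF low RFI, LF high RFI, HF low RFI and HF high RFI. Fat and fiber changed together between the diets and cannot be told apart. The lines differ in their whole selection history and not in 1 allele.

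SULT2A1 is a cytosolic sulfotransferase, which moves a sulfonate group from the donor PAPS onto hydroxysteroids such as dehydroepiandrosterone and onto bile acids, so that they become more soluble and lose activity. CYP2B22 is a pig cytochrome P450 of the CYP2B subfamily, a family of heme enzymes that oxidize lipophilic drugs and steroids with electrons from the reductase POR. Both kinds of enzyme are best known from liver, where the nuclear receptors PXR (NR1I2) and CAR (NR1I3) induce CYP2B genes and, in several species, SULT2A1.

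The 4 probes are shown because all values of the 2 genes rest on them. Each probe is 60 bases long and its first 30 bases are printed 5′ to 3′ as the scanner files give them, with the brighter probe of a gene first.
SULT2A1, brighter probe: tgtccttgcacatgtgaatgatgggggcta
SULT2A1, dimmer probe: ttgaatggttcatccaaggaaatgtgccct
CYP2B22, brighter probe: atgggatcacgaaccattttagatgtgtca
CYP2B22, dimmer probe: taaaggaaagggaagaaactgaggctaaaa
The probes of SULT2A1 start at position 941 and 484 of its transcript by the files' own numbering, and those of CYP2B22 at position 2262 and 1866. The 2 probes of a gene therefore did not overlap. The longest run that a SULT2A1 probe shared with any other probe of the array, on either strand, was 15 bases, and for CYP2B22 it was 14 bases. The terms brighter and dimmer only name the probes, since signals of different probes on an array are not comparable as amounts of RNA.

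Each pig had 1 array, and the arrays lay on 6 slides of 8 arrays, with 2 pigs of each group on every slide, scanned on 2 days. A level is given as log2 of the median spot signal minus the median of all non-control probes of the same array, so 0 is the median probe. All 4 probes passed the filter for testing, which asked for a signal well above background on all 12 arrays of at least 1 group. The dimmer SULT2A1 probe passed only through the 2 LF groups and the dimmer CYP2B22 probe only through the LF high RFI group, which are groups where they were high, so these probes are no independent support for the differences. Across arrays, between 38875 and 47814 probes were well above background, and no spot of the 4 probes was saturated. The 8 adipocyte markers, among them ADIPOQ, PLIN1 and FABP4, were well above background on all 48 arrays. Of the 10 kidney markers on the array, 8 were above background on at most 4 arrays, and the other 2, AQP2 and PAX8, on 48 and 47. Of the 8 adrenal cortex markers, STAR, CYP11A1, HSD3B1 and FDX1 were above background on 48 arrays, CYP21A2 on 47, NR5A1 on 32, CYP17A1 on 11 and MC2R on 2. Liver genes were uneven, and ALB ranged from -1.65 to 9.11 over the pigs. The arrays of 3 LF pigs had a median correlation with the other arrays below 0.98, and these pigs ranked 1, 3 and 4 of 48 for ALB. Results that rest on them are given with and without these 3 arrays.

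SULT2A1 was lower in PRAT of pigs fed the HF diet in both lines. With the brighter probe the level in HF low RFI pigs ran from -1.55 to 2.85 with a median of 1.69, and in HF high RFI pigs from -0.53 to 2.77 with a median of 1.09. In LF low RFI pigs it ran from 2.57 to 4.17 with a median of 3.26, and in LF high RFI pigs from 2.42 to 4.65 with a median of 3.13. The HF and LF pigs overlapped only at the edge, with 19 of 24 HF pigs below every LF pig and 24 of 24 HF pigs below the LF mean.

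The group means were 3.36 ± 0.69 (SD, n = 12) in LF high RFI, 3.23 ± 0.44 in LF low RFI, 1.28 ± 1.35 in HF low RFI and 1.18 ± 1.0 in HF high RFI. Neighbours in this order that shared a diet differed by less than their spread, and the step lay between the diets. The SD was larger in both HF groups than in both LF groups. HF minus LF was -2.07 (SE 0.26), a 4.19-fold lower signal, with -1.96 (SE 0.37) in the low RFI line and -2.18 (SE 0.37) in the high RFI line. For reference, 15.2% of the 40509 probes tested were called lower and 9.04% higher in HF at the study's thresholds, which were a raw p under 0.01, a fold over 1.1 and a Benjamini-Hochberg (BH) adjusted p under 0.08 in limma, but the rule that picked SULT2A1 used this contrast. With quantile normalization the calls over all probes split into 4603 lower and 4960 higher, in place of 6165 and 3664.

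The dimmer SULT2A1 probe had medians of 0.02 in HF low RFI, -0.44 in HF high RFI, 1.45 in LF low RFI and 1.39 in LF high RFI. HF minus LF was -1.79 (SE 0.21), a 3.45-fold lower signal, and 21 of 24 HF pigs lay below every LF pig, 19 of them below every LF pig on both probes. Over the 48 pigs the 2 probes correlated at 0.989, and after removal of the group means at 0.976. The brighter probe was not in the authors' filtered table of log2 values, so the deposited value of SULT2A1 rests on the dimmer one.

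**Figure D1:**
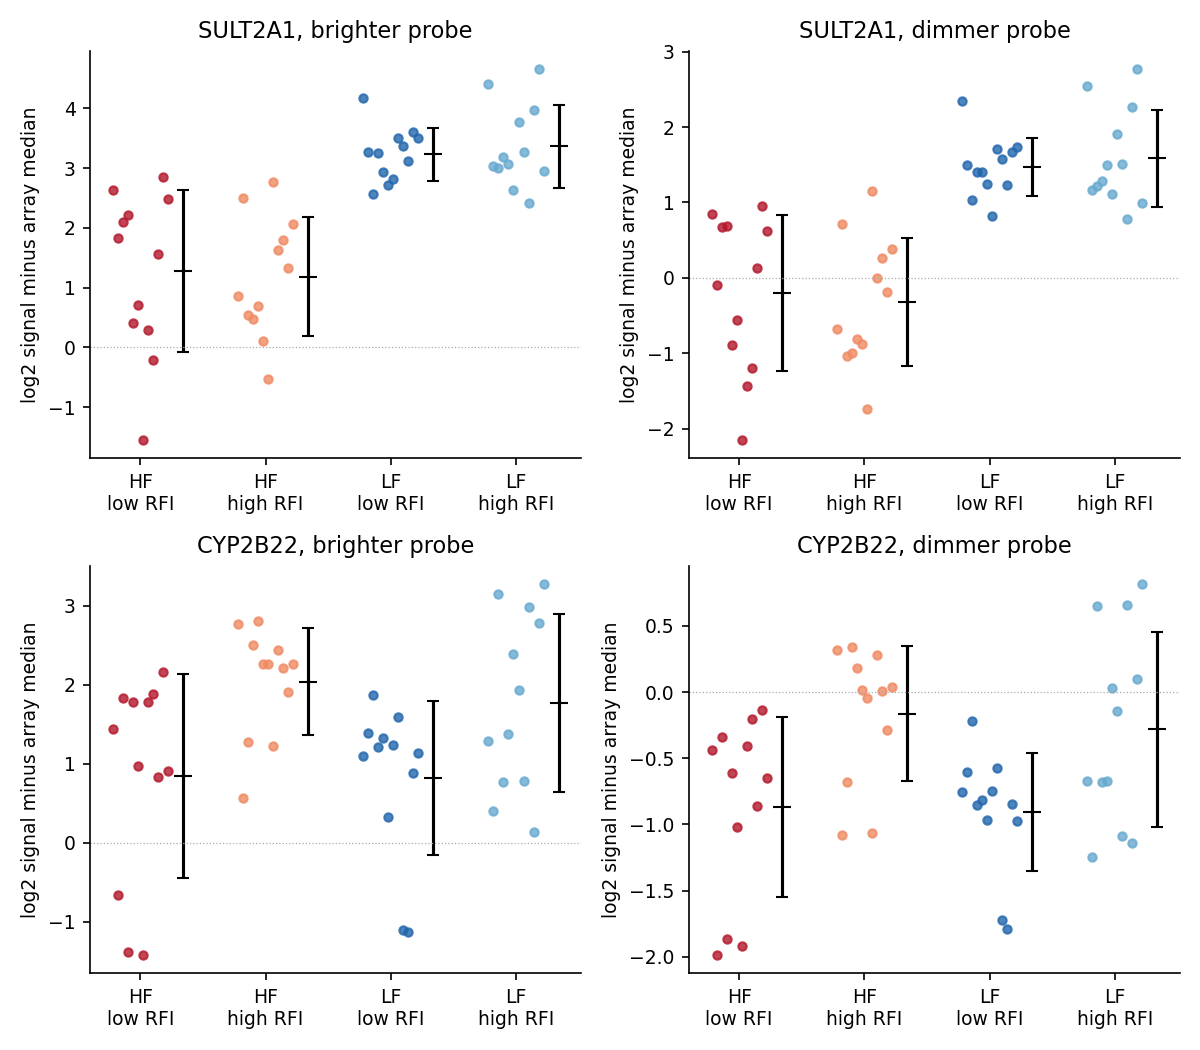
Level of SULT2A1 (upper row) and CYP2B22 (lower row) in each of 48 pigs, as log2 spot signal minus the array median, for the brighter (left) and the dimmer probe (right), with 12 pigs in each group and the mean and SD in black. The HF pigs sit below nearly all LF pigs for SULT2A1, and 5 low RFI pigs sit below all high RFI pigs for CYP2B22.

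The diet difference of SULT2A1 is described here by scan day and slide. These are parts of the same arrays on which the gene was chosen, so their signs are no separate support. HF minus LF was -1.93 (SE 0.28) on the first scan day and -2.20 (SE 0.42) on the second. It was below 0 on 6 of 6 slides, from -3.09 to -1.49. Without the 3 LF arrays it was -2.005 (SE 0.27). The line difference of SULT2A1 was small beside its error, at -0.02 (SE 0.26) for low minus high RFI, with 0.09 (SE 0.37) on HF and -0.13 (SE 0.37) on LF. It was 0.36 on the first and -0.40 on the second scan day.

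CYP2B22 was lower in the low RFI line on both diets. With the brighter probe the level in HF low RFI pigs ran from -1.42 to 2.16 with a median of 1.20, and in HF high RFI pigs from 0.57 to 2.81 with a median of 2.26. In LF low RFI pigs it ran from -1.14 to 1.87 with a median of 1.17, and in LF high RFI pigs from 0.14 to 3.27 with a median of 1.65. The lines overlapped over most of their range, yet 5 of 24 low RFI pigs lay below every high RFI pig and 13 of 24 high RFI pigs lay above every low RFI pig. All 24 low RFI pigs were below the high RFI median of 2.23.

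The group means were 2.04 ± 0.68 (SD, n = 12) in HF high RFI, 1.77 ± 1.13 in LF high RFI, 0.84 ± 1.29 in HF low RFI and 0.82 ± 0.98 in LF low RFI. No neighbours in this order differed by more than the SD of both groups. Low minus high RFI was -1.08 (SE 0.29), a 2.11-fold lower signal, with -1.20 (SE 0.41) on HF and -0.95 (SE 0.41) on LF. Among all probes tested 3.56% were called for line, 1.82% higher and 1.74% lower in the low RFI line, and here too the rule had used the contrast. In both low RFI groups a few pigs lay well below the rest. The 3 lowest HF low RFI pigs were at -1.42, -1.39 and -0.66 and the next at 0.83, while the 2 lowest LF low RFI pigs were at -1.14 and -1.10 and the next at 0.33.

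The dimmer CYP2B22 probe gave medians of -0.63 in HF low RFI, 0.01 in HF high RFI, -0.83 in LF low RFI and -0.41 in LF high RFI. Low minus high RFI was -0.66 (SE 0.17), a 1.58-fold lower signal. It was above background on 9 of 12 arrays in HF low RFI, 11 in HF high RFI, 10 in LF low RFI and 12 in LF high RFI, so its low end is close to background. As a description, the 5 low RFI pigs below every high RFI pig were the same on both probes, which correlated at 0.966 over all pigs and at 0.956 within groups.

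The line difference of CYP2B22 was below 0 on 6 of 6 slides, from -1.82 to -0.44. It was -0.86 (SE 0.38) on the first and -1.29 (SE 0.43) on the second scan day. As for SULT2A1, these parts of the same arrays are no separate support. Without the 3 LF arrays it was -0.96 (SE 0.30). The diet difference of CYP2B22 was 0.15 (SE 0.29), with 0.03 (SE 0.41) in the low RFI and 0.27 (SE 0.41) in the high RFI line, and it was below 0 on 4 of 6 slides. In bulk tissue, fewer cells of a type and less RNA per cell cannot be told apart, for either gene.

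**Figure D2:**
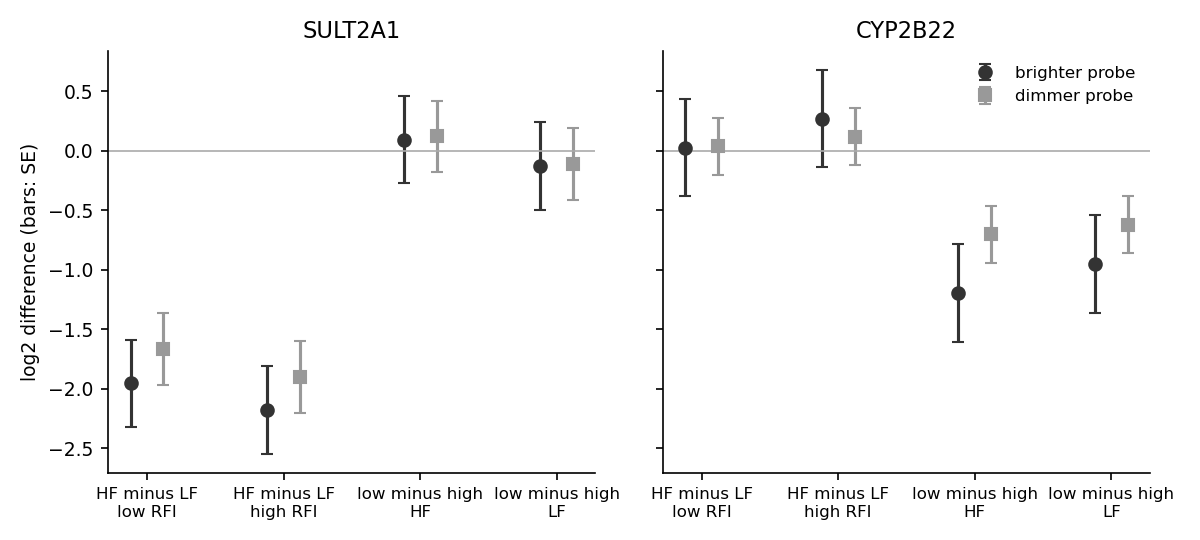
Log2 differences of SULT2A1 (left) and CYP2B22 (right) between diets within each line and between lines within each diet, for the brighter (circles) and the dimmer probe (squares), with bars of 1 SE. The 2 diet differences of SULT2A1 lie at -1.96 and -2.18 and the 2 line differences of CYP2B22 at -1.20 and -0.95 with the brighter probe.

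Whether diet acted on the genes to a different degree in the 2 lines was asked with the interaction term, which the choice of the genes had not used. For SULT2A1 the diet difference in low RFI minus that in high RFI pigs was 0.22 (SE 0.52), with a raw p of 0.671 and a BH adjusted p of 1.0 in limma. Its 95% interval ran from -0.82 to 1.27 on the log2 scale. For CYP2B22 it was -0.24 (SE 0.58), with a raw p of 0.677 and a BH adjusted p of 1.0, and an interval from -1.41 to 0.92. Neither interaction was called, and as ratios of the folds in the 2 lines these intervals ran from 0.565 to 2.41 for SULT2A1 and from 0.377 to 1.90 for CYP2B22. Across the array 0.0% of the 40509 probes were called for an interaction with limma, where 901 had a raw p under 0.05, and 0 were called with two-way ANOVA, where 885 did.

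Pigs of the same group differed in SULT2A1 by slide. Deviations of the brighter probe from the group mean averaged 0.57 on slide 1 and 0.67 on slide 6, and -0.61 on slide 3 and -0.47 on slide 4. The 8 pigs of slide 3 all lay below their group means, from -1.08 to -0.30. Slides held 28.7% of the variation of SULT2A1 within groups and 10.73% of that of CYP2B22, against a median of 17.8% over all probes tested. Every slide held each group equally, so this did not move the group differences.

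**Figure D3:**
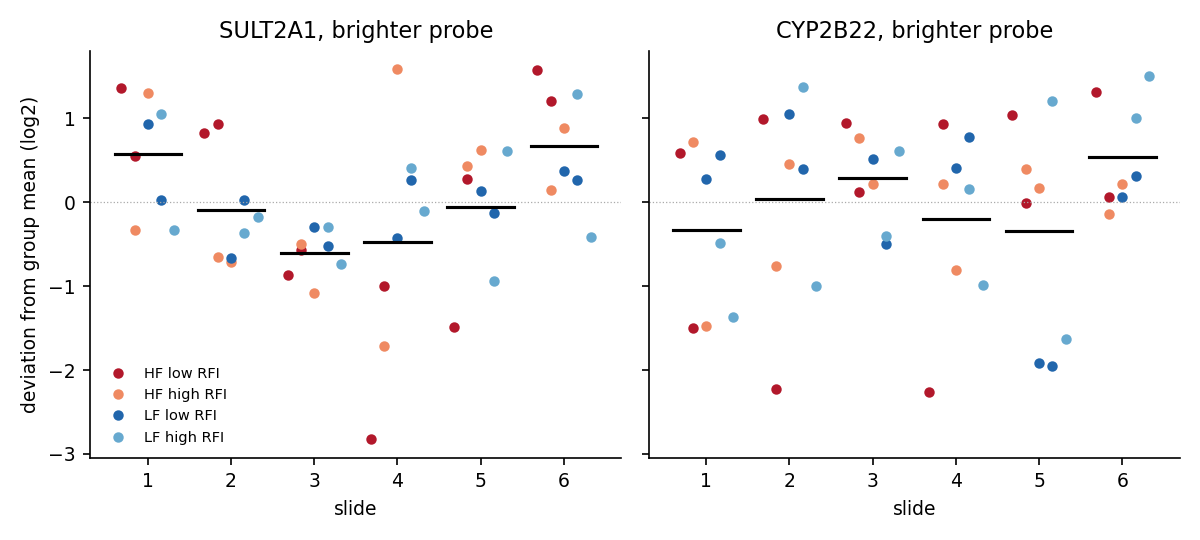
Deviation of each pig from its group mean for SULT2A1 (left) and CYP2B22 (right), brighter probes, log2 scale, by slide, with the slide mean as a black line and colours for the groups. The SULT2A1 means run from -0.61 on slide 3 to 0.67 on slide 6.

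The 2 genes showed no detectable relation between pigs once the group means were removed. The Pearson correlation was -0.0503 over 48 pigs (permutation p = 0.763, adjusted over 5 relations 0.907, two-sided), and the Spearman correlation was -0.214 (permutation p = 0.145, adjusted 0.241). Within the groups of 12 pigs it was 0.202 in HF low RFI, -0.513 in HF high RFI, -0.0379 in LF low RFI and -0.234 in LF high RFI, and the lowest adjusted permutation p of these was 0.443. It was -0.366 on the first and 0.164 on the second scan day. Leaving out the 2 pigs farthest from the SULT2A1 median gave -0.260 (permutation p = 0.0949).

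Many transcripts varied with SULT2A1 between pigs of the same group. With the group-centred SULT2A1 level as a covariate in limma, 1535 of 40507 probes, or 3.79%, followed it at a BH adjusted p under 0.05, 799 (1.97%) with a positive and 736 (1.82%) with a negative slope. With arrays centred on the 75th percentile 2670 had a positive and 580 a negative slope, and with the deposited values 888 and 135. Over all probes tested, unnamed and dimmer ones included, correlations within groups reached 0.772 and -0.678, and the smallest adjusted p in limma was 7.65e-06. Genes were ranked by their brightest named probe. By that ranking PTGDS, prostaglandin D synthase of the lipocalin family, was most like SULT2A1. Its correlation within groups over 48 pigs was 0.688 (Spearman 0.725, adjusted p = 0.000765). It was 0.835 in HF low RFI, 0.870 in HF high RFI, 0.539 in LF low RFI and 0.292 in LF high RFI. PTGDS also differed by diet, at 3.19 ± 1.26 (SD, n = 24) in HF and 5.89 ± 0.98 in LF pigs, so it fell by 2.70 (SE 0.32, BH adjusted p = 5.03e-08), lower than the LF mean in 23 of 24 HF pigs.

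The next genes in this order had known roles in several pathways. PCBD1, a dehydratase that recycles the tetrahydrobiopterin cofactor and also acts with HNF1 factors, correlated at 0.652. PINK1, a kinase of mitochondrial quality control, stood at 0.628 and VDAC1, the channel of the outer mitochondrial membrane, at 0.610. BLVRB, a biliverdin reductase, stood at 0.626, SFRP5, a secreted inhibitor of WNT signals, at 0.609, and TKT, a transketolase of the pentose phosphate pathway, at 0.605. MPP1, ANAPC13 and NPSR1 completed the 10, down to 0.593. In each of the 10 the correlation was higher in both HF groups than in either LF group. The genes were picked by the pooled correlation, in which HF pigs weigh more, since SULT2A1 varied more among them. Its SD was 1.35 and 1.0 in the HF groups and 0.44 and 0.69 in the LF groups. Higher HF correlations were thus favoured by the choice, and whether diet changes these relations was not tested. VDAC1 stood at 0.890 in HF low RFI and 0.884 in HF high RFI, but at 0.157 in LF low RFI and 0.0148 in LF high RFI. TKT stood at 0.859 and 0.757 in these HF groups and at 0.267 and -0.0991 in these LF groups. All 10 genes were lower in HF than in LF and called for diet, beside 19.4% of all named genes called lower. The within-group correlation had not used the diet difference. All 10 were picked for varying with 1 gene, itself chosen for its diet difference, so they are not separate cases to count against this share.

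At the other end were ZCCHC3 at -0.668, PRIMPOL, a primase and polymerase of DNA damage tolerance, at -0.658, and KDM4A, a histone demethylase, at -0.657. VGLL4, a partner of TEAD factors, stood at -0.642, and NDST2, a sulfotransferase of heparan sulfate chains, at -0.641. UNK, DMTF1, RBM5, DENND4B and C11ORF75 lay between -0.629 and -0.610. Some of these relations were absent in an LF group, with KDM4A at 0.00506 in LF low RFI and UNK at 0.0441 in LF high RFI. The narrower SULT2A1 range of LF pigs limits this comparison as well. PRIMPOL kept -0.604 in LF low RFI and -0.634 in LF high RFI. All 10 had a positive HF minus LF difference, and 6 of them were called for diet, beside 6.21% of all named genes called higher. They too are not separate cases.

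The count of transcripts that followed SULT2A1 depended on the slides. With slide as a block in the model it was 41, of which 38 were among the 1535. PTGDS (adjusted p = 0.0407), NPSR1 (0.0468) and VGLL4 (0.0440) were the members of both lists of 10 that still passed, while the adjusted p of the others ran up to 0.240. With the replicate number as a block these 3 did not pass (PTGDS 0.0560, NPSR1 0.0889, VGLL4 0.0904), and PCBD1 (0.0475) was the only one of the 20 that did. With slide removed the correlations of the 10 highest lay between 0.443 and 0.617, and those of the 10 lowest between -0.599 and -0.462. Without the 3 LF arrays the count was 3505 and included 1523 of the 1535. All 20 genes passed in that setting.

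**Figure D4:**
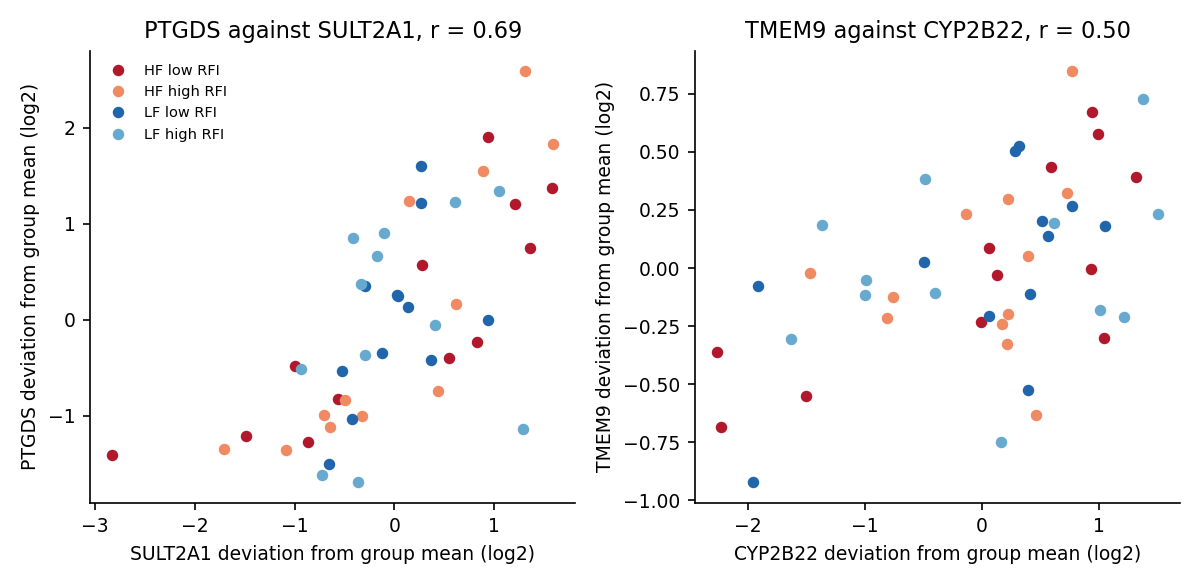
Deviation from the group mean, log2 scale, of PTGDS against SULT2A1 (left) and of TMEM9 against CYP2B22 (right), 1 point for each of 48 pigs, coloured by group. The correlation is 0.69 for PTGDS and 0.50 for TMEM9.

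No transcript followed CYP2B22 in the same test, with 0 of 40507 probes called by limma and 2358 at a raw p under 0.05. Over all probes tested, correlations within groups reached 0.623 and -0.551, and the smallest adjusted p in limma was 0.104. By the ranking of genes on their brightest named probe, TMEM9 at 0.503 was most like CYP2B22. Next were CMTM6 at 0.467, SREK1 at 0.457, SLC30A5, a zinc transporter, at 0.451, and MOBKL1B at 0.440. They were followed by PPP3R1, a calcineurin subunit, at 0.436, the cytochrome CYP2A7 at 0.424, and TRPM6, SDCCAG1 and DCAF5, down to 0.416. The lowest were TIMM50, a subunit of the mitochondrial import machinery, at -0.511, SPRYD3 at -0.510, ZNF507 at -0.510, ADSSL1 at -0.491 and FCGBP at -0.486. SELO, RAB4B, ATHL1, PDK3 and ZNF511 lay between -0.483 and -0.437. The adjusted p of all 20 was 0.840.

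Genes that lie beside the 2 enzymes on the chromosome were compared as well. By the gene order of the RefSeq annotation of the Sscrofa11.1 assembly, 10 of the 20 nearest neighbours of CYP2B22 were tested. None of these was called for line or diet, beside 3.32% and 25.6% of all named genes. Their line differences lay between -0.08 and 0.29, the highest being that of CYP2A19, which had a correlation with CYP2B22 of 0.412 within groups. Of the 20 nearest neighbours of SULT2A1, 4 were tested. NAPA, which takes part in vesicle fusion, fell in HF by 0.18 (BH adjusted p = 0.00614) and ELSPBP1 by 0.29 (0.00310). Of all named genes 19.4% were called lower in HF. None of the 4 was called for line.

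The enzymes were set beside 6 lists of genes of the same pathways, with 128 genes tested of 157 on the array, 1 probe a gene. For diet, 29 fell in HF, 7 rose and 92 were not called, beside 19.4% of 10161 named genes called lower and 6.21% called higher. Over all named genes this was 1973 lower and 631 higher, and 1368 and 955 with quantile normalization. For line, 6 were higher and 1 was lower in the low RFI pigs, beside 1.90% and 1.42% of all named genes. The lists had a median diet difference of -0.10 against -0.05 over all genes. Symbols of close paralogs, such as the CYP3A, CYP4A and AKR1C genes, are those of the array and a probe may bind RNA of a sister gene.

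Of 32 cytochrome P450 and other phase I genes, 11 fell in HF and 1 rose, with a median difference of -0.28. CYP2D25, a vitamin D hydroxylase of the CYP2D group, went from 1.18 ± 1.83 (SD, n = 24) in LF to -0.02 ± 1.03 in HF, a difference of -1.20 (SE 0.41, BH adjusted p = 0.0230), but was not called without the 3 LF arrays. ALDH1A1, which oxidizes retinal, fell by 0.75 (SE 0.10, adjusted p = 9.03e-07), and 22 of 24 HF pigs were below the LF mean. EPHX1, the microsomal epoxide hydrolase, fell by 0.62 (SE 0.13, adjusted p = 0.000509), NQO1, a quinone reductase, by 0.48 and CYP4A21, a fatty acid hydroxylase, by 0.47. CYP1A2 rose by 0.28 (SE 0.10, adjusted p = 0.0364). CYP1A2 also lost its call without the 3 arrays and with normexp and quantile normalization. POR, the reductase that serves CYP2B22, differed by -0.22 (SE 0.09, adjusted p = 0.0632) and was not called, but it was called without the 3 arrays. CYP1A1, CYP1B1 and the 4 CYP2C genes on the array did not pass the filter.

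By line, 4 phase I genes were called and all were higher in low RFI pigs, the reverse of CYP2B22. With quantile normalization, alone or after normexp, 4 were called higher and 1 lower. ALDH2, the mitochondrial aldehyde dehydrogenase, was higher by 0.83 (SE 0.18, BH adjusted p = 0.00439), CYP1A2 by 0.55 (SE 0.10, adjusted p = 0.000731), EPHX1 by 0.54 (SE 0.13, adjusted p = 0.0139) and ALDH1A1 by 0.35 (SE 0.10, adjusted p = 0.0521). For CYP1A2, 21 of 24 low RFI pigs were above the high RFI mean. CYP2A19, one of the neighbours of CYP2B22, and CYP2A7 differed between lines by 0.29 (SE 0.23) and 0.12 (SE 0.17) and were not called.

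Of 10 other genes of sulfation tested, 2 fell and 2 rose with the HF diet, and 2 fell and 1 rose with normexp and quantile normalization. IMPAD1, a phosphatase that removes the spent donor, fell by 0.29 (SE 0.07, BH adjusted p = 0.00139) and TPST1, a tyrosine sulfotransferase, by 0.27 (SE 0.05, adjusted p = 0.000137). PAPSS2, a synthase of the donor PAPS, rose by 0.14 (SE 0.04, adjusted p = 0.00939) and ARSB, a lysosomal sulfatase, by 0.19 (SE 0.07, adjusted p = 0.0236), but ARSB was not called without the 3 LF arrays. PAPSS1 differed by -0.02, SULT1A1, the phenol sulfotransferase, by -0.13, STS, the steroid sulfatase that reverses SULT2A1, by 0.04, TPST2 by 0.03, and the donor transporters SLC35B2 and SLC35B3 by -0.08 and 0.05, and none of these was called. By line, SLC35B2 was higher in low RFI pigs by 0.18 (SE 0.05, adjusted p = 0.0264). SULT1E1, SULT4A1 and SUOX did not pass the filter, being above background on 40, 6 and 29 arrays.

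Of 14 other conjugating enzymes, 4 fell and 0 rose in HF, and 2 fell with background-subtracted signals and with normexp and quantile normalization. MGST2 and GSTO1, both of glutathione conjugation, fell by 0.43 (SE 0.15, BH adjusted p = 0.0246) and 0.28 (SE 0.05, adjusted p = 5.40e-05), and NAT1, an acetyltransferase, by 0.15 (SE 0.05, adjusted p = 0.0267). Of 14 transporters, ABCC5, an export pump, rose by 0.47 (SE 0.11, adjusted p = 0.000618) and SLCO4A1 fell by 0.15 (SE 0.05, adjusted p = 0.0326), but SLCO4A1 was not called without the 3 arrays or under any of 5 other scalings. SLCO2B1, an uptake carrier of sulfated steroids, was lower in low RFI pigs by 0.31 (SE 0.09, adjusted p = 0.0410).

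Among 27 regulators, 6 fell and 2 rose, and with quantile normalization 2 fell and 3 rose, so that no direction is given for this list. The differences below are those of the main scaling, and most of the 6 falls were not called with quantile normalization. NR1I2, the receptor PXR, was at 1.72 ± 0.29 (SD, n = 24) in HF and 1.78 ± 0.32 in LF, a difference of -0.06 (SE 0.09, BH adjusted p = 0.603), and by line of 0.01. Its correlation within groups was 0.274 with SULT2A1 and -0.286 with CYP2B22, neither of which passed. HNF4A, a liver and gut regulator, differed by -0.10 (SE 0.09, adjusted p = 0.462). RXRA, the partner of PXR and CAR, fell by 0.18 (SE 0.05, adjusted p = 0.00704). PPARD fell by 0.67 (SE 0.13, adjusted p = 0.000121), PPARA rose by 0.53, though not without the 3 arrays, and RXRG rose by 0.44. ESRRA and PPARG fell by 0.20 and 0.19. For PPARG the direction was opposite to the study's qPCR on these pigs, which gave a rise in HF in PRAT and in subcutaneous fat. For PPARD, RXRA and RXRG that qPCR gave the same direction in PRAT as the arrays. For PPARA it gave a significant fall in subcutaneous fat only, and the study reports no rise in PRAT. NR1H4, the bile acid receptor, was above background on 12 arrays and was not tested, and NR1I3 was not measured under that name. None of the 27 was called for line.

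Of 31 genes of steroid metabolism, 5 fell and 1 rose in HF. They were HSD17B13 (0.42), HSD17B4 (0.34), the estrogen receptor ESR1 (0.34), FDX1 (0.29), which passes electrons to mitochondrial P450 enzymes, and TSPO (0.25), each number being the fall on the log2 scale. STARD3, a cholesterol carrier of endosomes, rose by 0.27 (SE 0.05, BH adjusted p = 3.00e-05). By line, AKR1C1, a reductase of steroids and aldehydes, was higher in low RFI pigs by 1.25 (SE 0.39, adjusted p = 0.0685), with an SD of 0.61 in low and 1.88 in high RFI pigs, but was not called with background-subtracted signals.

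**Figure D5:**
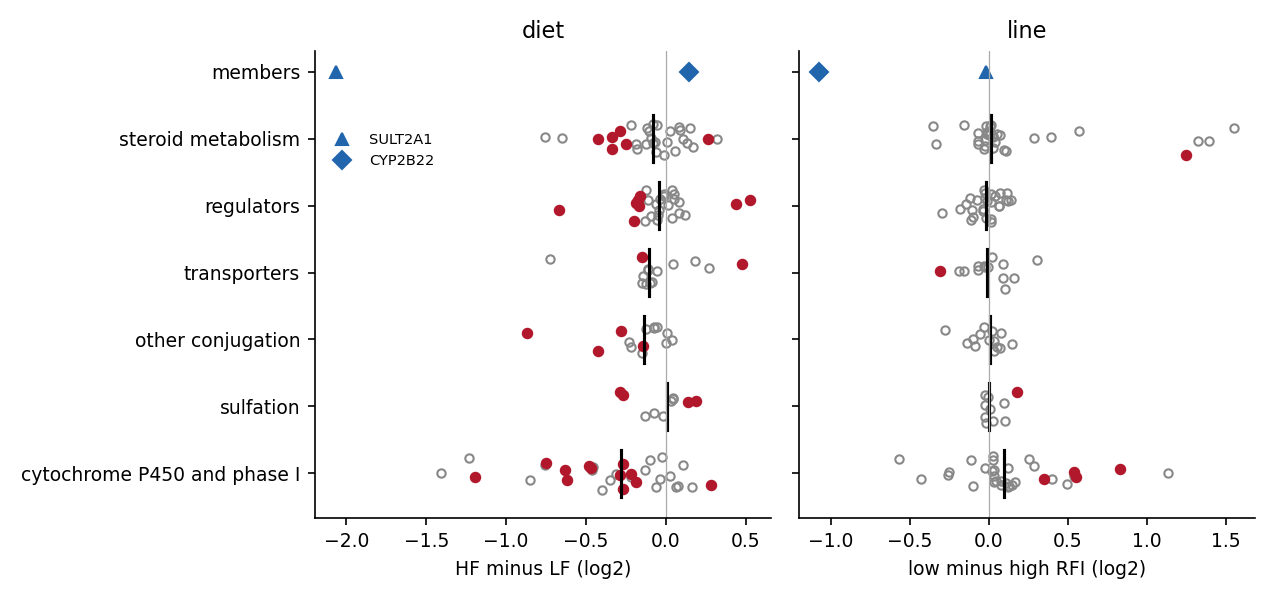
Log2 difference between diets (left) and lines (right) for each tested gene of 6 lists, with called genes filled in red, genes not called as open circles and the list median as a black bar, and SULT2A1 (triangle) and CYP2B22 (diamond) in the top row. SULT2A1 is drawn at -2.07 for diet and CYP2B22 at -1.08 for line, the contrasts for which they were chosen, so their place beside the lists is no finding.

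Of the list genes, 7 of 128 followed SULT2A1 within groups, all with a positive correlation, beside 376 of 10161 named genes (3.70%), of which 223 were positive and 153 negative. Among them were FMO5 (0.514), ALDH1A1 (0.486), TSPO (0.486), NQO1 (0.473), CYP21A2 (0.464) and ESR1 (0.451), with BH adjusted p from 0.0222 to 0.0444. With slide as a block ALDH1A1 alone passed (adjusted p = 0.0441). No gene of the sulfation list, of the transporters or of the regulators followed SULT2A1.

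Some markers of cell types were called for diet, beside 19.4% of all named genes called lower in HF and 6.21% called higher. No shift in cell types is read from these calls. The summed level of 5 macrophage markers, in multiples of the array median, was 12.9 to 83.6 with a median of 35.1 in HF and 11.3 to 60.8 with a median of 22.7 in LF pigs, and 2 of them rose. The sum of 8 adipocyte markers was 4367 to 6063 in HF and 4782 to 6573 in LF, and 3 of them fell, among them LEP by 0.94. The sum of 5 adrenal cortex markers was 36.9 to 56.6 in HF and 50.7 to 74.4 in LF, and FDX1 was the only one called. FDX1 made up most of this sum, at a mean log2 level of 5.57 beside 1.76 for STAR, the next brightest. HF minus LF was 0.17 for STAR, 0.08 for HSD3B1, 0.01 for CYP11A1 and -0.10 for CYP21A2. The kidney sum rested on 2 genes and was 4.03 to 11.4 in HF and 5.22 to 16.3 in LF, where AQP2 fell by 0.63. The liver sum of 5 genes was 233 to 358 in HF and 194 to 1223 in LF, where APOB fell by 0.29. APOA1, the brightest of them at a mean log2 level of 8.07, differed by -0.01. ALB and TTR differed by -1.51 and -1.53 and were not called. Among T and NK cell markers CD3G and NKG7 rose, by 0.34 and 0.31, with a summed level of 7.99 to 17.2 in HF and 6.51 to 19.2 in LF. Of the other lists, 1 endothelial gene rose, 1 adrenal medulla gene fell, and no B cell, fibroblast, mesothelium, muscle or erythrocyte gene was called for diet. None of the tested markers of the 13 cell types was called for line, beside 3.32% of all named genes. Within groups 5 of 59 tested markers followed SULT2A1, without slide in the model and beside 3.70% of all named genes, namely AQP2 (0.486), CYP21A2 (0.464), APOB (0.462), LEP (0.445) and PDGFRA (-0.449). The part of these cells in the SULT2A1 difference was not tested.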

How the data were processed

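Total RNA of PRAT from 48 pigs was labelled with Cy3 and hybridised to 1-colour Agilent porcine arrays, read with Feature Extraction 10.7.3.1. The deposited scanner files hold spot intensity values with no normalization between arrays. The deposited log2 table was made by the authors in R 2.10.0, who dropped spots by brightness, evenness, saturation and outlier flags and centred each array on its median. Its entries equalled log2 of the median signal of 1 spot within 1e-06 in 38142 of 38142 cases, but only 2 carried the name of that spot, so names came from the scanner files, or for 1308 tested probes through accessions and RefSeq tables.

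Here log2 of the median signal, without background subtraction, was centred on the array median over non-control probes. Folds of dim probes are understated on this scale. Probes well above background on all 12 arrays of at least 1 group were kept, 40509 of 60305, and each gene was represented by its brightest probe. Limma 3.58.1 in R 4.3.3 fitted diet, line and interaction, and BH adjustment ran over all probes tested. Likeness was the correlation of deviations from group means, tested with the level of the gene as a covariate. Correlations between the 2 genes were tested with 100000 permutations within groups. On simulated data with 40509 probes, 90 of 100 diet changes of 0.5 and 100 of 100 of 1 on the log2 scale were called, as were 20 unchanged probes. Of 200 simulated followers 198 were called, with 12 other probes. The simulated probes varied independently, without slide or replicate effects, and each follower varied with the simulated level by its own residual SD. The counts are thus no measure of power or of false calls among weaker or slide-dependent followers in the data. Python 3.11.15 with numpy 2.4.6, pandas 2.3.3, scipy 1.17.1 and matplotlib 3.10.9 was used.

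The genes, lists and markers were chosen with earlier results of these data known. Named were all probes of the 2 genes, in each list the called genes up to the 6 largest for each effect and those that followed, the sulfation list, main receptors and partners, and the 10 genes at either end of likeness. NR1I3 had no probe of that name. Alternatives were other scalings, filters, thresholds, slide, scan day and replicate blocks, two-way ANOVA, averaged probes and no interaction term. Scan days apart and the omission of the 3 arrays were chosen after seeing the data. Replicates were separate pigs. The number of arrays limits the precision. Some genes that the naming rule would cover are not reported here.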

Additional observations from a re-analysis of the deposited data

How the results depend on the processing

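HF minus LF of SULT2A1 ran from -2.28 with background-subtracted signals to -1.79 with the deposited values, which hold the dimmer probe, and low minus high RFI of CYP2B22 from -1.33 to -0.86, all negative. The interaction terms were called under none of 10 alternatives for either gene. With the 75th percentile as the centre 3250 probes followed SULT2A1 (2670 with positive slope), with the deposited values 1023 (888 positive), with slide as a block 41, and without the 3 arrays 3505. Pigs with the same replicate number in the labels, which also order the slides, gave correlations of deviations from -0.24 to 0.50 over 72 pairs. Their median was 0.129, against -0.0111 for pigs of different numbers. The main fit did not treat them as a block. Whether pigs of a number belong together cannot be told from the labels. With the replicate block 23 probes followed SULT2A1 and 1 followed CYP2B22, as did 1 with background-subtracted signals, and 16 of 48 pigs correlated best with their own number. The correlation between the genes turned to 0.0473 with background-subtracted signals and to 0.164 on scan day 2. At a fold over 1.5, 434 probes and 6 list genes were called for diet and 229 probes and 2 list genes for line. The split of diet calls over all probes was 6165 lower and 3664 higher, 4894 and 4866 with the 75th percentile as the centre, and 4603 and 4960 with quantile normalization. The cause was not tested in any of these cases. Probe signals near background limit the dimmer CYP2B22 probe, and the number of arrays limits small interactions.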
